A study of Mus musculus with 6 samples.

Results

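The AMPA receptor genes examined here were 10 of the 36079 genes in an expression table from mouse brain: the pore-forming subunits Gria1, Gria2, Gria3 and Gria4, the cornichons Cnih2 and Cnih3, the transmembrane AMPA receptor regulatory proteins (TARPs) Cacng2, Cacng3 and Cacng8, and Shisa9. They were taken by gene symbol, matched to the Ensembl identifiers of the table, and all 10 were found. The list was chosen by symbol with the FPKM differences between these same diet groups already known, so the differences between diets below are a description of these genes and support nothing by themselves. The samples were temporal lobe, labelled only as brain, of mice made epileptic with kainic acid, an agonist of glutamate receptors. After 3 weeks on a ketogenic diet, which is high in fat and low in carbohydrate, 3 mice gave 1 library each, and after 3 weeks on chow 3 other mice did. All 6 mice had received kainic acid, so nothing here bears on the seizure model itself. Strain, sex and age were not stated in the labels read for this account.

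AMPA receptors are glutamate-gated cation channels assembled from the Gria subunits, and they carry most fast excitatory transmission in the forebrain. The auxiliary proteins bind the assembled channel. TARPs and cornichons help it leave the endoplasmic reticulum and reach the synapse and slow its closing, and Shisa9, also called CKAMP44, alters how fast it desensitises and recovers. A Gria2 subunit in the channel keeps calcium out, because its messenger RNA is edited at the Q/R site of the pore loop by the enzyme encoded by Adarb1.

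The coding sequence around the Q/R site is shown because it is where the 4 pore subunits, so alike elsewhere in the loop, come to differ in the cell. Each window of 63 bases was read from the GENCODE M21 transcripts of GRCm38, which carry the unedited genomic letters, and the codon of the site is in capitals.
Gria1: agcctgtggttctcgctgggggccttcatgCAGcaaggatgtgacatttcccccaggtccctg
Gria2: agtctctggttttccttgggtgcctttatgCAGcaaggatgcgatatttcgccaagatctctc
Gria3: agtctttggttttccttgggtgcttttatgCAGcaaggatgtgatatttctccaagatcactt
Gria4: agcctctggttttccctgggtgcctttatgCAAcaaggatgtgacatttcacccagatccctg
In the unedited sequence Gria2 had the same codon, CAG, as Gria1 and Gria3, while Gria4 had CAA. Against the Gria2 window, 57 of 63 bases were identical in Gria3, 54 in Gria4 and 49 in Gria1. The genes lie on chromosomes 11 (Gria1), 3 (Gria2), X (Gria3) and 9 (Gria4). The deposited values count reads per gene, so editing at this codon was not measured.

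Expression was given as FPKM, reads scaled to gene length and library depth. Whole read numbers recovered from the FPKM steps ranged from 39927217 to 55910355 per library, and each member had between 1268 (Cacng3, chow replicate 1) and 44525 reads (Gria2, ketogenic replicate 1) in a library. In bulk tissue, fewer cells of a type and less RNA per cell cannot be told apart. The libraries differed in brain region: markers of thalamus and diencephalon summed to 15.6 to 28.3 FPKM in ketogenic mice and to 18.3 to 347 FPKM in chow mice, with the highest sum in chow replicate 1. Markers of excitatory forebrain neurons summed to 588 to 1185 FPKM in ketogenic mice and to 252 to 814 FPKM in chow mice, with the lowest in that same library. Pan-neuronal markers such as Snap25 summed to 1004 to 1229 FPKM in ketogenic mice and to 1073 to 1179 FPKM in chow mice, a narrower range than that of either regional list. No marker of these 3 lists was at 0 in any library.

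Of the pore subunits, Gria1 and Gria3 had higher means on the ketogenic diet, Gria4 a lower one and Gria2 nearly equal ones. Gria1 (ENSMUSG00000020524), a major subunit of hippocampal and cortical principal cells, measured 104, 77.4 and 107 FPKM in ketogenic replicates 1, 2 and 3, against 67.8, 80.4 and 75.5 FPKM in chow replicates 1, 2 and 3. Ketogenic replicate 2 lay among the chow libraries, while the other two ketogenic libraries lay above all of them. The means were 96.2 ± 16.4 FPKM in ketogenic mice and 74.6 ± 6.32 FPKM in chow mice (SD, n = 3 each), a log2 difference of 0.35 ± 0.15 (limma's SE, on log2(FPKM + 0.5)).

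Gria2 (ENSMUSG00000033981), the subunit that makes the channel impermeable to calcium, measured 50.8, 38.5 and 45.5 FPKM in ketogenic replicates 1, 2 and 3, against 28.6, 48.0 and 53.0 FPKM in chow replicates 1, 2 and 3. Its lowest and its highest value were both on chow. The means were 44.9 ± 6.18 FPKM in ketogenic mice and 43.2 ± 12.9 FPKM in chow mice (SD, n = 3 each), with a log2 difference of 0.10 and a 95% interval from -0.50 to 0.69. Without chow replicate 1 that difference was -0.17, so its sign depended on 1 library. Leaving out any other single library gave values from 0.003 (without ketogenic replicate 1) to 0.26 (without chow replicate 3).

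Gria3 (ENSMUSG00000001986), which pairs mainly with Gria2 in cortical neurons, measured 29.3, 28.1 and 29.2 FPKM on the ketogenic diet, against 17.3, 26.3 and 27.5 FPKM on chow. The groups did not overlap, but only 28.1 FPKM against 27.5 FPKM parted the nearest libraries. The log2 difference was 0.31 ± 0.18, and 0.10 without chow replicate 1. Gria4 (ENSMUSG00000025892), the subunit of interneurons, thalamus and cerebellum, was the member with the most even ketogenic values: 22.2, 22.5 and 22.2 FPKM, against 32.6, 22.8 and 27.4 FPKM on chow. All ketogenic libraries lay below all chow libraries, again by a narrow margin, and the highest value was in chow replicate 1, the library richest in thalamic markers. Its log2 difference was -0.29 ± 0.14, and -0.16 without chow replicate 1.

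**Figure D1:**
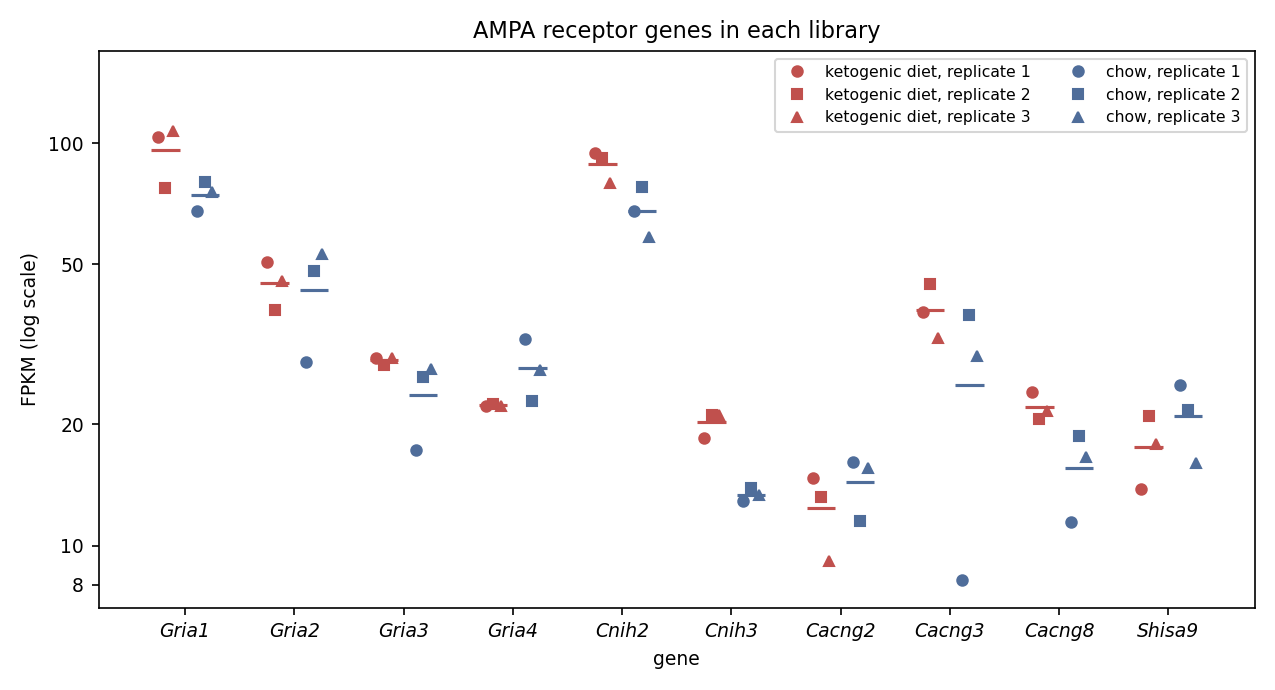
FPKM (log scale) of the 10 AMPA receptor genes in each library, ketogenic diet (red) left of chow (blue); symbols mark the replicate and short bars the mean of 3 mice. Cnih3 has a clear gap between diets, with 18.5 to 21.2 FPKM in ketogenic mice and 12.9 to 13.9 FPKM in chow mice, while Cacng3 has 1 chow library far below all others.

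The cornichons were the only subfamily with more than 1 member in which every gene separated the diets, both being higher on the ketogenic diet. Of all genes tested, 4.9% separated the diets in that direction and 7.49% in the other. Cnih3 (ENSMUSG00000026514), which in rodents is found in hippocampal and cortical neurons and prolongs the open time of AMPA receptors, measured 18.5, 21.2 and 21.1 FPKM in ketogenic replicates 1, 2 and 3, against 12.9, 13.9 and 13.3 FPKM in chow replicates 1, 2 and 3. The gap between the groups exceeded the range within either. The mean on the ketogenic diet was 1.51 times that on chow, the log2 difference 0.58 ± 0.10 with a 95% interval from 0.35 to 0.81. In chow replicate 1 Cnih3 stood at 94.9% of the mean of the other two chow libraries, so the library that set other members apart did not do so here.

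Cnih2 (ENSMUSG00000024873), the more abundant cornichon and a partner of Gria1 in hippocampal neurons, measured 94.7, 91.9 and 79.9 FPKM in ketogenic replicates 1, 2 and 3, against 67.9, 77.7 and 58.7 FPKM in chow replicates 1, 2 and 3. The groups did not overlap, with 79.9 FPKM in the lowest ketogenic library and 77.7 FPKM in the highest chow library. The log2 difference was 0.39 ± 0.14, and it was also 0.39 without chow replicate 1. Cornichon FPKM summed to 109 ± 7.004 in ketogenic mice and to 81.5 ± 9.81 in chow mice (SD, n = 3 each).

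The sequences before the starts of Cnih3 and Cnih2 are shown, as the 250 bases upstream of the RefSeq start (GRCm38.p6). They were picked with the diet differences known, and a link between sequence and diet was not tested. The region of Cnih3 is chr1:181352378-181352627 on the plus strand and that of Cnih2 chr19:5098522-5098771 on the minus strand. Capitals mark the Sp1 box GGGCGG read on either strand, here as CCGCCC.
Cnih3: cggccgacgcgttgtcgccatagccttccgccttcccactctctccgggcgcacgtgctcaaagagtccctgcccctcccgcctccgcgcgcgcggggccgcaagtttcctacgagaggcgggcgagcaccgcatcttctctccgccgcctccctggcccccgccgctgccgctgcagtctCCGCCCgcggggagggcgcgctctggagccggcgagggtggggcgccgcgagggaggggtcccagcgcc
Cnih2: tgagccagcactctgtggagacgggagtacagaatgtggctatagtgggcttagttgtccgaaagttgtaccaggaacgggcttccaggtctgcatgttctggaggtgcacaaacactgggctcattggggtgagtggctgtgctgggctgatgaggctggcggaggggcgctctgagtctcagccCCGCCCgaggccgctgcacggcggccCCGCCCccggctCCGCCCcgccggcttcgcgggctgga
The Sp1 box was present once in the Cnih3 stretch and 3 times in that of Cnih2, without overlap, and 32.7% of 32851 promoters of the same length held at least 1. RefSeq promoters were matched for 7 of the 10 members, and the other 5 of those 7 (Gria2, Gria4, Cacng2, Cacng3 and Cacng8) held no Sp1 box in this window. Of those 5, Cacng8 was also higher in all ketogenic libraries. G and C made up 76% of the Cnih3 stretch and 65.6% of the Cnih2 stretch, against a median of 52.4% over all promoters. The cyclic AMP response element TGACGTCA, searched on both strands, was in none of the 7 windows, and 1.55% of all promoters held it. A match describes the letters and is no evidence of binding.

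Among the TARPs, Cacng8 and Cacng3 had higher means on the ketogenic diet and Cacng2 a lower one. Cacng8 (ENSMUSG00000053395), or TARP gamma-8, the main TARP of the hippocampus, measured 24.1, 20.7 and 21.6 FPKM in ketogenic replicates 1, 2 and 3, against 11.4, 18.7 and 16.6 FPKM in chow replicates 1, 2 and 3. All ketogenic libraries lay above all chow libraries. The means were 22.1 ± 1.76 FPKM in ketogenic mice and 15.6 ± 3.75 FPKM in chow mice (SD, n = 3 each), a log2 difference of 0.52 ± 0.19 that was 0.32 without chow replicate 1.

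Cacng3 (ENSMUSG00000066189), or TARP gamma-3, a cortical TARP, measured 38.1, 44.6 and 32.7 FPKM on the ketogenic diet, against 8.20, 37.5 and 29.6 FPKM on chow. It was the most variable member, with a 4.57-fold range among the chow libraries that came from chow replicate 1, at 24.5% of the mean of the other two. Its log2 difference of 0.85 had a 95% interval from -0.44 to 2.14, and it was 0.19 without chow replicate 1. Cacng2 (ENSMUSG00000019146), or stargazin, the TARP best known from the cerebellum, measured 14.7, 13.2 and 9.16 FPKM on the ketogenic diet, against 16.1, 11.5 and 15.6 FPKM on chow. The groups overlapped, and the log2 difference of -0.22 ± 0.21 was -0.03 without ketogenic replicate 3, -0.14 without chow replicate 1, -0.36 without ketogenic replicate 1 and -0.37 without chow replicate 2.

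Shisa9 (ENSMUSG00000022494), known in mice from the dentate gyrus, measured 13.8, 21.04 and 17.9 FPKM in ketogenic replicates 1, 2 and 3, against 25.1, 21.7 and 16.1 FPKM in chow replicates 1, 2 and 3. The groups overlapped. The log2 difference was -0.25 ± 0.21, with a 95% interval from -0.76 to 0.27. It was -0.09 without ketogenic replicate 1, -0.11 without chow replicate 1, -0.38 without ketogenic replicate 2 and -0.42 without chow replicate 3.

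Over the 10 members, the log2 difference was above 0 in 7 and below 0 in 3, with a median of 0.33, against a median of -0.04 and 43.1% above 0 over all 16009 genes tested. All ketogenic libraries lay above all chow libraries in 4 members (Gria3, Cnih2, Cnih3 and Cacng8), as did 4.9% of all genes tested, and below them in 1 (Gria4), as did 7.49%. In the limma fit across all genes, no gene in the table passed an adjusted p of 0.05, which is 0% of those tested, and the members' adjusted p was 0.752 or more. At an unadjusted p under 0.05 there were 3 members (Cnih3, Cnih2 and Cacng8), all higher, where 2.06% of all genes tested were higher and 3.32% lower. The members had been proposed from this contrast, so these counts are not evidence about them as a set.

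**Figure D2:**
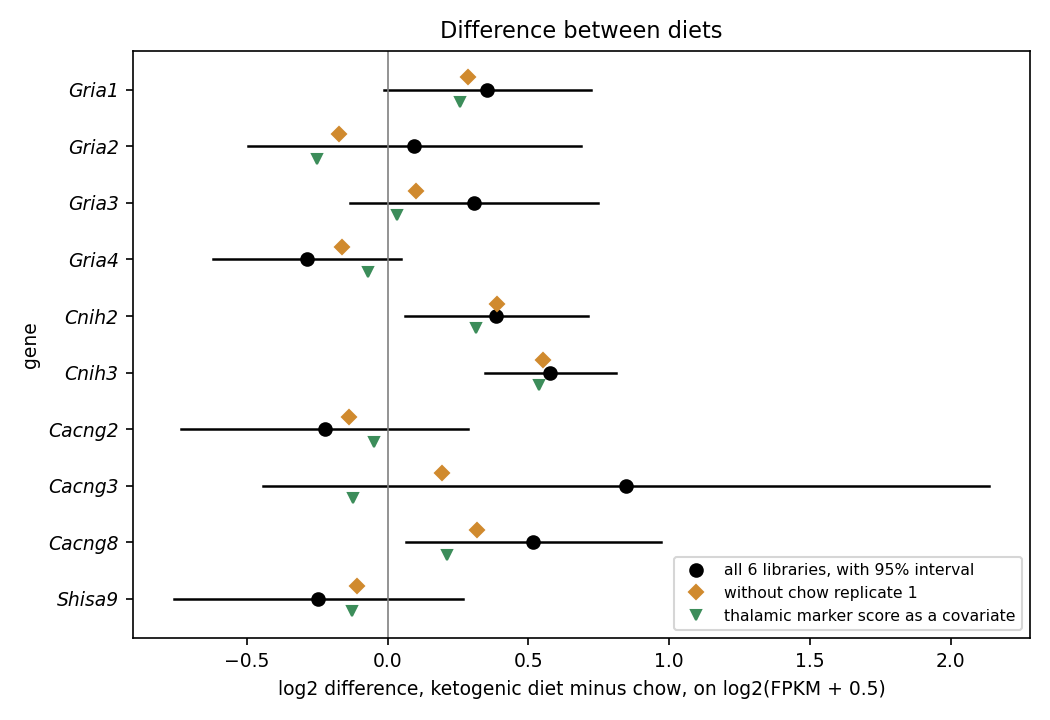
Log2 difference of each gene between the ketogenic diet and chow, on log2(FPKM + 0.5): black points with limma's 95% interval use all 6 libraries, diamonds leave out chow replicate 1, and triangles add the thalamic marker score to the fit. Cnih3 (0.58, 0.55 and 0.54) hardly moved, whereas Cacng3 (0.85, 0.19 and -0.12) did.

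The spread between chow mice was uneven over the members, and for several of them chow replicate 1 stood farthest from the other two. Of the 10 genes, 6 had their lowest value of all libraries there (Gria1, Gria2, Gria3, Cnih3, Cacng3 and Cacng8), and 3 had their highest there (Gria4, Cacng2 and Shisa9). Gria2, Gria3 and Cacng8 stood at 56.6%, 64.2% and 64.7% of the mean of the other two chow libraries, and Gria4, Cacng2 and Shisa9 at 130%, 119% and 133%. Cnih2, at 99.5%, was level with it. In that library the median deviation from the 6-library mean was 2.65 (log2) for the 8 thalamic and diencephalic markers, -1.33 for the 8 excitatory forebrain markers, -0.78 for the 8 interneuron markers and 1.03 for the 7 oligodendrocyte markers.

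When the fit also held the thalamic marker score, Cnih3, Cnih2 and Gria1 had log2 differences of 0.54, 0.31 and 0.26, against 0.58, 0.39 and 0.35 without it. That of Cacng8 was 0.21, against 0.52 without the score. Those of Gria3 and Gria4 were 0.03 and -0.07 in that fit, and those of Cacng3 and Gria2 were below 0, at -0.12 and -0.25. With the pan-neuronal score as a covariate instead, no member's difference had another sign, and those of Cnih3 and Cacng3 were 0.58 and 0.83. All 8 thalamic and diencephalic markers had log2 differences below 0, and 7 of the 8 excitatory markers had differences above 0, so diet and dissected region cannot be told apart fully with 3 mice per group. Striatal markers varied within both diets, from 47.8 to 745 FPKM in sum in ketogenic mice and from 41.7 to 956 FPKM in chow mice. Choroid plexus markers did as well, from 4.15 to 1108 FPKM in ketogenic mice and from 8.49 to 1938 FPKM in chow mice, with Folr1 and Otx2 at 0 in at least 1 library. Hippocampal subfield markers had median deviations (log2) of 1.24, -1.27 and -0.22 in ketogenic replicates 1, 2 and 3. In chow replicates 1, 2 and 3 these were 1.29, -0.91 and 0.35. Their sums ran from 52.3 to 85.2 FPKM in ketogenic mice and from 52.3 to 79.6 FPKM in chow mice. The part of hippocampal, striatal and choroid plexus tissue in the members' values was not tested.

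**Figure D3:**
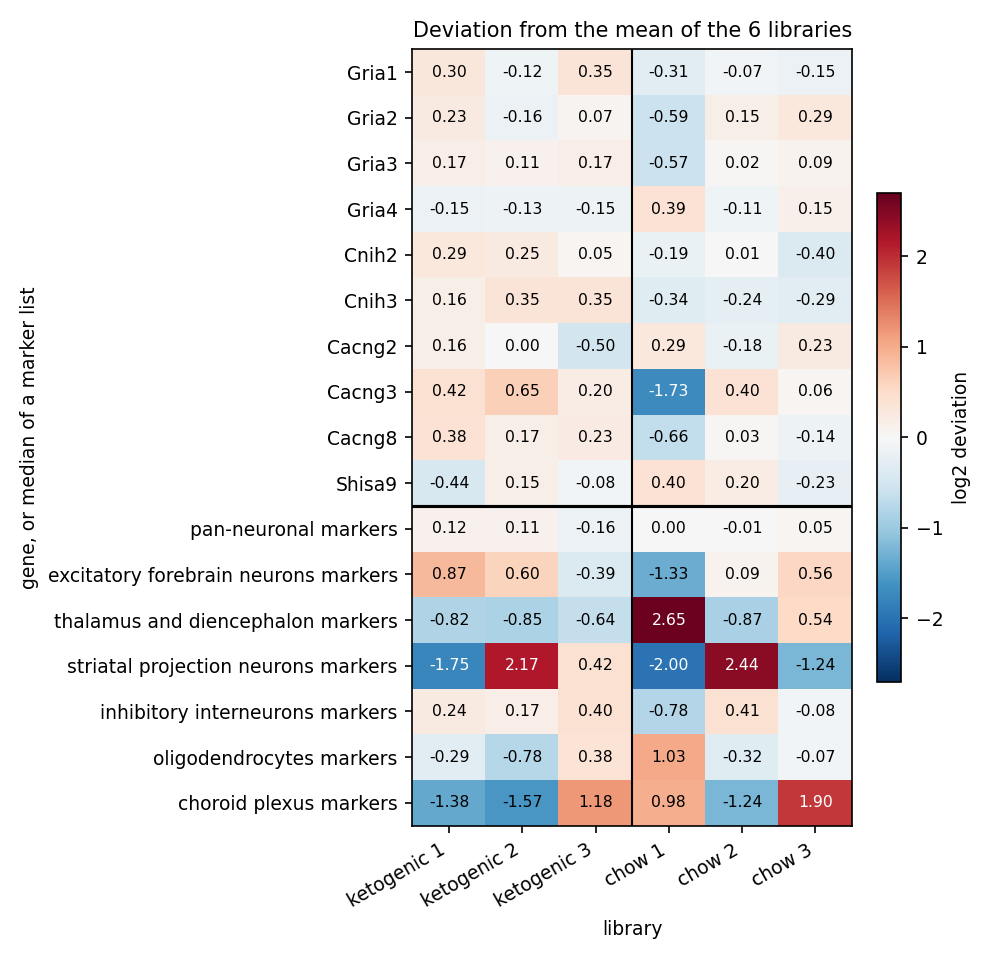
Deviation of each gene (rows above the line) from its mean over the 6 libraries, and the median deviation of 7 marker lists (rows below the line), on log2(FPKM + 0.5); columns are libraries, ketogenic diet left of chow. Chow replicate 1 combines the highest thalamic score (2.65) with the lowest Cacng3 (-1.73), Cacng8 (-0.66), Gria2 (-0.59) and Gria3 (-0.57), while Cnih3 is low in all 3 chow libraries (-0.34, -0.24 and -0.29).

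By deposited FPKM, Gria1 was the most abundant member, with a mean of 85.4 FPKM over the 6 libraries, followed by Cnih2 (78.5), Gria2 (44.1), Cacng3 (31.8), Gria3 (26.3), Gria4 (25.0), Shisa9 (19.3), Cacng8 (18.9), Cnih3 (16.8) and Cacng2 (13.4). Several neighbours in this order changed places between libraries. Gria1 exceeded Cnih2 in 4 of 6 libraries, Shisa9 exceeded Cacng8 in 3 of 6, Cacng8 exceeded Cnih3 in 4 of 6 and Cnih3 exceeded Cacng2 in 4 of 6, so these neighbours cannot be ranked. Cnih2 exceeded Gria2, and Gria4 exceeded Shisa9, in 6 of 6. Even Cacng2 had a mean above that of 77.6% of the genes tested.

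The distances between the pore subunits, though not the order of their means over the 6 libraries, depended on the gene length behind FPKM. The lengths implied by the table equalled, relative to Gria1, the union of all exons in GENCODE M21 for all 10 members, and for 95.6% of 15839 tested genes within a tolerance of 0.001. This union takes in exons of transcripts that are not protein-coding. It was 15548 bases for Gria2, of which exons of its 2 protein-coding transcripts cover 10486. For Gria3 it was 9859 bases, of which such exons cover 5498. For Gria1 the lengths were 6043 and 5893 bases, and for Gria4, Cnih3 and the 3 TARPs they were equal. Divided by the exons of protein-coding transcripts, the mean level was 65.3 FPKM for Gria2 and 47.1 FPKM for Gria3, against 87.5 FPKM for Gria1 and 25.0 FPKM for Gria4. Gria3 then stood above Cacng3, at 31.8 FPKM. Within single libraries the order of the pore subunits could change. In chow replicate 3 Gria2 (78.5 FPKM) then exceeded Gria1 (77.5 FPKM), and in chow replicate 1 Gria2 (42.4 FPKM) exceeded Gria4 (32.6 FPKM). Neither was so in deposited FPKM. A length is the same in every library, so ratios between diets of 1 gene are unaffected.

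**Figure D4:**
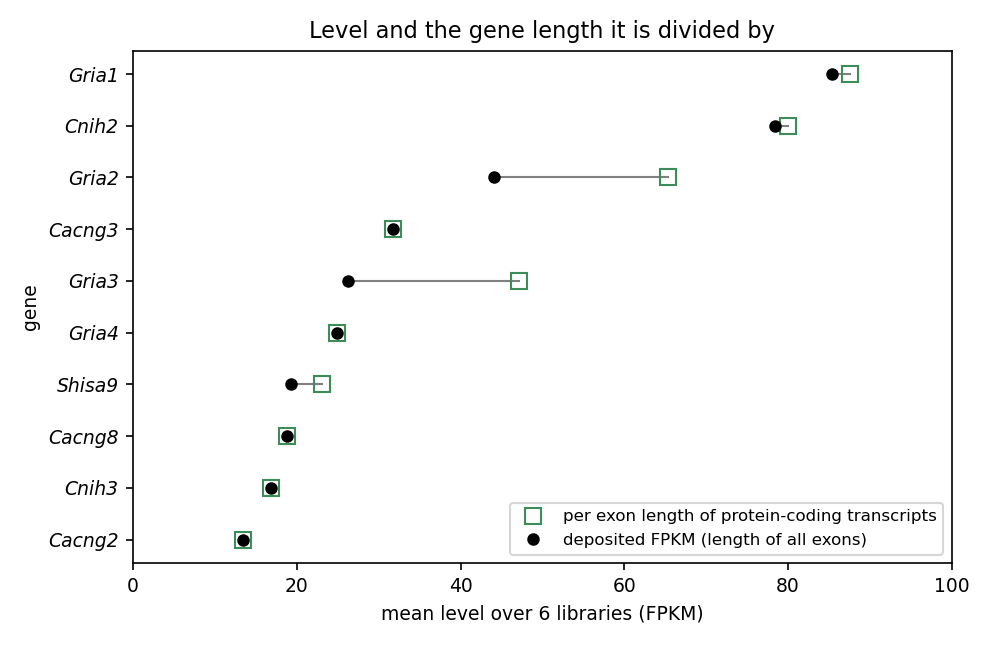
Mean level of each gene over the 6 libraries, as deposited (filled circles, divided by the length of all exons) and divided by the exon length of protein-coding transcripts (open squares); the horizontal axis is in FPKM. Gria2 moves to 65.3 FPKM, against 44.1 as deposited, and Gria3 to 47.1 FPKM, against 26.3, while the genes with equal lengths do not move.

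Within a library, Gria1 took the largest share of the summed deposited FPKM of the pore subunits. It made up 50.4%, 46.5% and 52.5% in ketogenic replicates 1, 2 and 3, against 46.4%, 45.3% and 41.2% in chow replicates 1, 2 and 3, and ketogenic replicate 2 and chow replicate 1 were nearly level. With the lengths of protein-coding transcripts the groups overlapped, at 41.0 ± 2.89% in ketogenic mice and 36.6 ± 3.18% in chow mice (SD, n = 3 each). By those lengths Gria2 led in chow replicate 3, with 33.8% against 33.3% for Gria1. Gria4 made up 10.8% to 13.5% on the ketogenic diet and 12.9% to 22.3% on chow. Gria2 made up 23.4 ± 1.21% in ketogenic mice and 25.2 ± 4.94% in chow mice. The ratio of Gria1 to Gria2 in deposited FPKM was 2.04, 2.01 and 2.36 on the ketogenic diet, against 2.37, 1.67 and 1.43 on chow, and the groups overlapped.

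The TARP mixture differed most between chow mice. Cacng2 made up 19.2%, 16.8% and 14.4% of the summed TARP FPKM in ketogenic replicates 1, 2 and 3, against 45.1%, 17.0% and 25.2% in chow replicates 1, 2 and 3. In chow replicate 1 it was the leading TARP, and in the other 5 libraries Cacng3 was, with 47.9% to 56.8%. In the cornichon mixture Cnih3 made up 16.3%, 18.7% and 20.9% on the ketogenic diet, against 15.99%, 15.2% and 18.5% on chow. Both cornichons had higher means on the ketogenic diet, and the share of Cnih3 overlapped between diets. The ratio of Cnih2 to Cnih3 was 5.12, 4.34 and 3.79 in ketogenic replicates 1, 2 and 3. In chow replicates 1, 2 and 3 it was 5.26, 5.60 and 4.40.

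**Figure D5:**
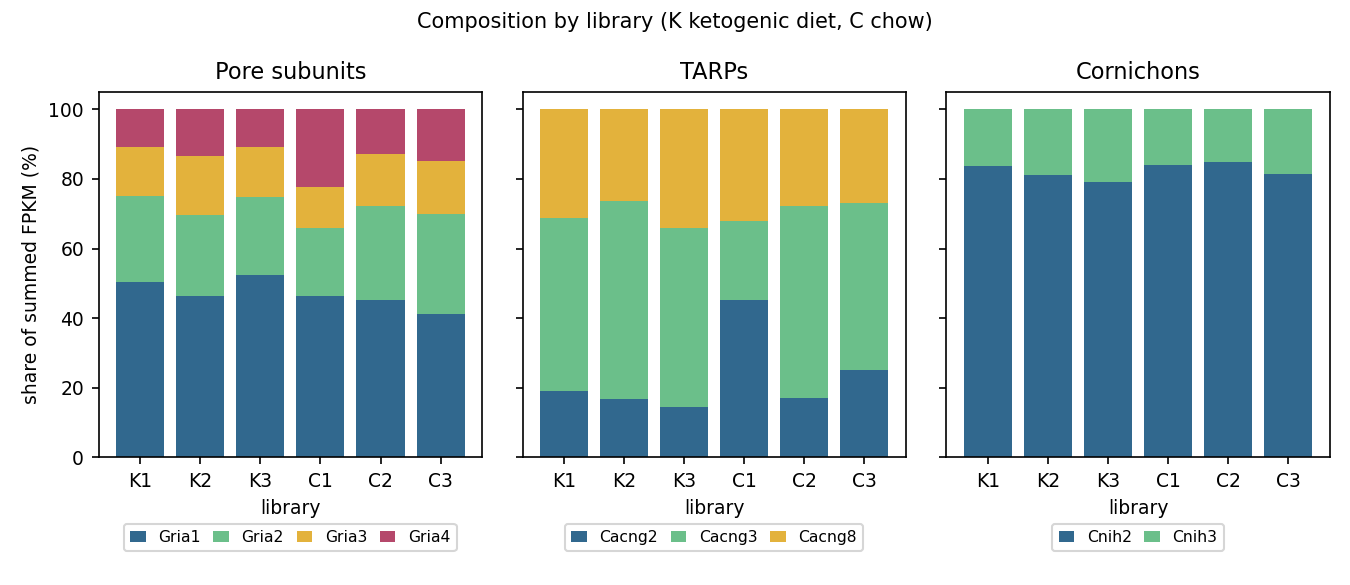
Share of each gene in the summed FPKM of the 4 pore subunits, the 3 TARPs and the 2 cornichons in each library; K1 to K3 are ketogenic, C1 to C3 chow replicates. Library C1 differs from the rest by its Cacng2 share (45.1%) and Gria4 share (22.3%), and the share of Cnih3 runs from 15.2% to 20.9%.

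Of 59 other genes of AMPA receptor function in 4 lists, 58 were measured at a level that could be tested, and none passed an adjusted p of 0.05 in limma in either direction, as for all genes. At an unadjusted p under 0.05 there were 4 higher and 1 lower, where 2.06% and 3.32% of all genes tested were. Their median log2 difference was 0.08, against -0.04 over all genes tested. Among 14 tested of 15 other auxiliary and constituent proteins, 7 had differences above 0 and 7 below, with a median of -0.04. Olfm1, a secreted olfactomedin found in receptor complexes, measured 193 ± 14.0 FPKM in ketogenic mice and 147 ± 25.5 FPKM in chow mice (SD, n = 3 each), and its relative Olfm3 measured 7.10 ± 1.29 FPKM in ketogenic mice and 12.2 ± 3.77 FPKM in chow mice. Both separated the diets, in opposite directions, where 4.9% of all genes tested separated higher and 7.49% lower. Groups overlapped for the auxiliary protein Shisa7 (log2 difference 0.60), the secreted factor Vwc2l (-0.37), the atypical TARP Cacng7 (-0.15), Gsg1l (0.43), which suppresses channel function, and Shisa6 (0.08), which limits desensitisation.

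In the list of assembly, editing and exit from the endoplasmic reticulum, 6 of 12 genes had differences above 0. Cpt1c, a brain relative of carnitine palmitoyltransferase that binds AMPA receptors in the endoplasmic reticulum, measured 13.9, 14.8 and 14.2 FPKM on the ketogenic diet, against 10.4, 11.8 and 11.0 FPKM on chow, without overlap (log2 difference 0.36 ± 0.09, limma's adjusted p 0.752). Porcn, an acyltransferase linked to receptor assembly, measured 18.03 ± 1.56 FPKM in ketogenic mice and 14.0 ± 1.70 FPKM in chow mice (SD, n = 3 each). Frrs1l, which acts with Cpt1c in assembly, showed no such gap, at 57.2 ± 10.3 FPKM in ketogenic mice and 55.9 ± 10.3 FPKM in chow mice. Cnih4, a cornichon of general cargo export, was lower in all ketogenic libraries (log2 difference -0.20), and groups overlapped for the phosphatase Sacm1l (-0.33). The editing enzyme gene Adarb1 measured 20.9, 21.8 and 18.8 FPKM on the ketogenic diet, against 82.1, 20.7 and 27.2 FPKM on chow, its high value being in chow replicate 1.

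Synaptic anchoring and trafficking genes had 12 of 20 differences above 0, with a median of 0.15, and in none did the groups part. Over all genes tested, 43.1% had differences above 0, and groups parted higher in 4.9% and lower in 7.49%. The neuronal pentraxins Nptx1 and Nptxr, extracellular proteins that cluster AMPA receptors, had log2 differences of 0.63 and 0.88, and Dlg4 and Dlg3, scaffold proteins of the postsynaptic density, 0.34 and 0.24. Kinases and phosphatases of plasticity had 10 of 12 above 0, with a median of 0.18. Groups overlapped for Camk2a, the kinase that phosphorylates Gria1 and TARPs (log2 difference 0.53), and for Prkca (0.35) and Prkacb (0.26). Camk2a, Prkca and Prkacb were also lowest in chow replicate 1, Camk2a at 185 FPKM.

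The genes with profiles most like each member over the 6 libraries were found by the root mean square difference of log2 deviations, among 7341 tested genes averaging 5 FPKM or more. With so many genes and only 6 libraries, near neighbours always exist. Nearest to Cnih3 were Kctd13, Rhof and the chaperone gene Hspa5, at 0.08, 0.10 and 0.11. Those nearest to Cnih2 were Rogdi, Dapk1 and Map1s (0.06 to 0.09), so the cornichons had different neighbours. Gria2 lay closest to the sodium channel gene Scn2a (0.07), Ppp1r12a and Rock2, Gria3 to Slitrk5 (0.05), Lclat1 and Fam171b, Gria1 to Mfap1b (0.07), Rap2a and Arpc5, and Gria4 to Adk (0.03), Acadvl and Phyh. Among TARPs, Cacng3 lay closest to Gas7 (0.05), Synpo and Grasp, Cacng8 to Plppr2 (0.07), Mmd and Rnf165, and Cacng2 to Sept6 (0.03), Arhgef10l and Trim66. For Shisa9 they were Clmp (0.03), Cacnb2 and Alkbh7.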

How the data were processed

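Total RNA was extracted with TRIzol, and poly(A) RNA was made into paired-end libraries, per the labels' protocols. The authors deposited FPKM per gene. The submitters' processing notes name HISAT2, featureCounts of Subread and the build GRCm39. Versions, strand setting and annotation release were not given in the sources used here, so overlapping and antisense genes can share reads. The lengths implied by the table equalled those of GENCODE M21, an annotation of GRCm38, for 95.6% of 15839 tested genes. This difference from the named build was not resolved. Columns were matched to mice by name and symbols by gene identifier (35175 of 36079).

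The 16009 genes averaging 0.5 FPKM or more entered 1 linear model, fitted by limma 3.58.1 under R 4.3.3 to log2(FPKM + 0.5). Diet was its sole factor, variances were moderated with a mean trend, and two-sided p-values were adjusted over all 16009 genes after Benjamini and Hochberg. This scale understates changes of low genes. The procedure was tested on simulated data with reads drawn for each gene separately, so without regional differences shared by genes. The outcome of that test is not reported here. Whole reads were recovered for 100% of 33862 genes above 0 (tolerance 0.001). No 2 libraries were duplicates (chi-square per gene 46.5 or more). Marker scores are medians of log2 deviations. Promoters came from RefSeq on GRCm38.p6 and transcripts from GENCODE M21.

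The members, lists and named genes were chosen with earlier results of these data known: all members, the 4 genes of smallest unadjusted p per list with 7 more whatever their values, and the 3 genes most like each member. Some genes this rule names are not reported here. Alternatives covered pseudocounts, filters, scalings, robust eBayes, voom, a replicate block, marker covariates and leaving out each library.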

Additional observations from a re-analysis of the deposited data

How the results depend on the processing

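No gene passed an adjusted p of 0.05 in limma with all libraries or under any of 19 alternatives, so 0 members and 0 genes of the 4 other lists did. The unadjusted p was under 0.05 for 329 genes higher and 532 genes lower in ketogenic mice, and in 290 and 567 by voom on recovered reads. That split depended on scaling, with 403 and 410 after quantile normalization and 490 and 379 after median centring. The counts were 669 and 1176 without chow replicate 2, 230 and 312 without chow replicate 1, 217 and 306 without ketogenic replicate 2, 234 and 340 without ketogenic replicate 1, 221 and 231 with the thalamic score, and 697 and 869 with no filter on low values. The smallest adjusted p of Cnih3 under any alternative was 0.43, and its log2 difference ranged from 0.54 to 0.64. Of the 10 members, 8 kept the sign of their difference throughout. Gria2 (0.10) turned to -0.17 without chow replicate 1, -0.10 with the excitatory marker score and -0.25 with the thalamic score, and Cacng3 (0.85) to -0.12 with the thalamic score. Without chow replicate 1 the diet difference in share, in percentage points, was 1.01 for Cacng3 (10.6 with all libraries), -4.31 for Cacng2 (-12.3), -2.17 for Gria4 (-4.96) and -4.61 for Gria2 (-1.81), and that of Gria2 was 0.05 without chow replicate 3. The length of protein-coding transcripts was an alternative chosen after seeing the data. The labels do not say whether replicate numbers pair the mice. Deviations of same-numbered libraries correlated at -0.04, 0.48 and -0.21, and those of differently numbered libraries at -0.31 to 0.45. These values cannot decide the pairing, since the libraries also differed in region. With a replicate block in limma 0 genes were called, and 359 and 623 had an unadjusted p under 0.05. Each member had at least 1268 reads per library, and 3 mice per diet limit precision.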
